A study of Rattus norvegicus with 14 samples.

Results

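Malignant peritoneal mesotheliomas that arose after injection of the carbon nanotubes MWCNT B or MWCNT C were compared with those that arose after MWCNT D. The tumors were chosen by the inducer named in their titles, which gave 5 tumors (2 of MWCNT B and 3 of MWCNT C) against 3 of MWCNT D, 8 of the 14 arrays of the study. All came from different male Wistar rats that had received a single intraperitoneal injection of the material in artificial lung medium. By histology the 5 MWCNT B and C tumors were sarcomatoid (3), biphasic (1) and epithelioid (1), and the 3 MWCNT D tumors were 1 of each type. The remaining arrays held 3 tumors induced by amosite asbestos and 3 tumor-free control peritoneal tissues (untreated by the methods, sham-treated by the labels), whose values are given only as reference levels. Each tumor was hybridized as bulk tissue to 1 Affymetrix array, so that fewer cells of a type and less RNA per cell cannot be told apart.

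Multiwalled carbon nanotubes are rolled sheets of carbon with fiber shape, and like asbestos fibers they can persist in the body cavities and give rise to tumors of the mesothelium, the lining of these cavities. By the methods of the study, MWCNT B and MWCNT C were grown from cyclohexane and MWCNT D from acetonitrile, and MWCNT D had the shortest and thinnest fibers of these materials. Mesothelioma cells can take an epithelial form, with keratins and cell junctions, or a spindle-shaped sarcomatoid form, with mesenchymal genes, and biphasic tumors hold both. The comparison asks whether tumors of the same organ carry a transcript difference that goes with the nanotube that induced them.

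The data held 1 called difference, the proteoglycan gene Acan, which was higher in every MWCNT B and C tumor than in every MWCNT D tumor. The test was made with limma on log2(signal + 1), over 31042 probe sets. A call needed a fold change of more than 2 together with an adjusted p (Benjamini-Hochberg) under 0.05. By this rule 1 probe set was called higher in the MWCNT B and C tumors (0.00322% of those tested) and 0 were called lower (0%). At an unadjusted p below 0.05, 1155 probe sets were higher (3.72%) and 864 lower (2.78%), 2019 in all (6.5%). MWCNT B and MWCNT C, which are treated as 1 group here, gave 0 called probe sets against each other in limma (0%), and 550 with an unadjusted p below 0.05 (1.77%). All other genes are therefore given as values, and members of gene lists are counted as higher or lower at an unadjusted p below 0.05.

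MWCNT D replicate 2, the sarcomatoid tumor of that group, stood apart from the other 7 tumors. On the first principal component, which held 32.8% of the variance of the 8 arrays, it lay at 175 and the others at -58.9 to -7.7. The mean log2 signal of 21 measured pancreatic acinar genes, of 24 listed, was 12.06 in this tumor, against 5.49 and 5.63 in the other MWCNT D tumors and 5.41 to 5.72 in the MWCNT B and C tumors. Chymotrypsinogen Ctrb1 reached a log2 signal of 18.89 there and 7.10 to 7.80 in the other 7 tumors, and lipase Pnlip 13.65 against 5.62 to 6.45. Lymphocyte genes were also high in it, with means of 10.29 for 25 T and NK cell genes and 12.26 for 12 B and plasma cell genes, against at most 7.39 and 7.08 in the others. The mesothelial markers Msln and Wt1 were low in it, at 7.92 and 7.08, against 11.11 to 13.38 and 10.73 to 12.06 in the other 7 tumors. No probe set was listed at 0 on any array. Amosite replicate 1, used here as a reference level only, also carried acinar genes, with a mean of 13.06. Many results are therefore also given without MWCNT D replicate 2, or with tumor type as a covariate. Values without such a mention come from all 8 tumors without a covariate, and may depend on that tumor. The part that the other tissue of MWCNT D replicate 2 plays in any gene was not tested.

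Acan encodes aggrecan, the large chondroitin sulfate proteoglycan that gives cartilage its resistance to compression. Its log2 signal was 12.56, 11.67 and 11.14 in the MWCNT C tumors, 11.31 and 12.87 in the MWCNT B tumors, and 5.68, 5.47 and 6.08 in the MWCNT D tumors. The groups did not overlap, and the lowest MWCNT B or C tumor lay far above the highest MWCNT D tumor. On the linear scale these were signals of 2250 to 7480 against 43.3 to 66.8. The difference was 6.16 on the log2(signal + 1) scale (SE 0.43, 71.7-fold, adjusted p = 0.015 by limma). The MWCNT D tumors were close to the control peritoneum, where Acan was 6.04, 6.06 and 6.23. Of the amosite tumors, the epithelioid and the biphasic tumor were at 5.58 and 5.55, and the sarcomatoid tumor was at 9.61.

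The Acan difference was present within each tumor type. Among epithelioid tumors the MWCNT B tumor exceeded the MWCNT D tumor by 5.63 log2 units, and among biphasic tumors the MWCNT C tumor exceeded the MWCNT D tumor by 5.05. Among sarcomatoid tumors the mean of the 3 MWCNT B and C tumors exceeded the MWCNT D tumor by 6.90. The only sarcomatoid MWCNT D tumor was replicate 2, with pancreatic and lymphocyte genes and low Msln and Wt1. A second probe set of the gene gave 9.70 to 11.25 against 4.03, 4.59 and 6.79, again without overlap, with a difference of 5.23 (adjusted p = 0.24). Without MWCNT D replicate 2 the difference was 6.03 and its adjusted p 0.059. With tumor type as a covariate it was 6.01 with an adjusted p of 0.11. The call was also lost without MWCNT D replicate 1 (adjusted p = 0.1), MWCNT C replicate 1 (0.067), MWCNT C replicate 2 (0.1) or MWCNT B replicate 1 (0.053). Over the alternatives run, the difference lay between 5.34 and 6.36.

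Most other genes of cartilage did not share this pattern. This list was chosen after the Acan values were seen: of 28 genes 20 were measured, and their median log2 difference was 0.01. Of these, 3 did not overlap between the groups (2.67% of all genes), all with higher values in the MWCNT B and C tumors (Acan, Hapln1 and Trps1). Acan had prompted the list, and Trps1 was among the genes named for groups without overlap. The count can therefore not be weighed against the share of all genes. Hapln1, the link protein that ties aggrecan to hyaluronan, was 5.51, 5.86 and 5.99 in the MWCNT C tumors, 8.6 and 4.82 in the MWCNT B tumors, and 4.40, 4.71 and 4.81 in the MWCNT D tumors. It was highest in the epithelioid MWCNT B tumor, and its lowest value lay just above the MWCNT D tumors. Col2a1, the collagen of cartilage, was 5.26 to 5.95 in the 5 tumors and 5.0 to 5.62 in the MWCNT D tumors. Of the proteoglycans of the aggrecan family, Vcan (versican) was 11.22 to 12.03 against 11.12, 6.26 and 11.25, with the low value again in MWCNT D replicate 2.

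**Figure D1:**
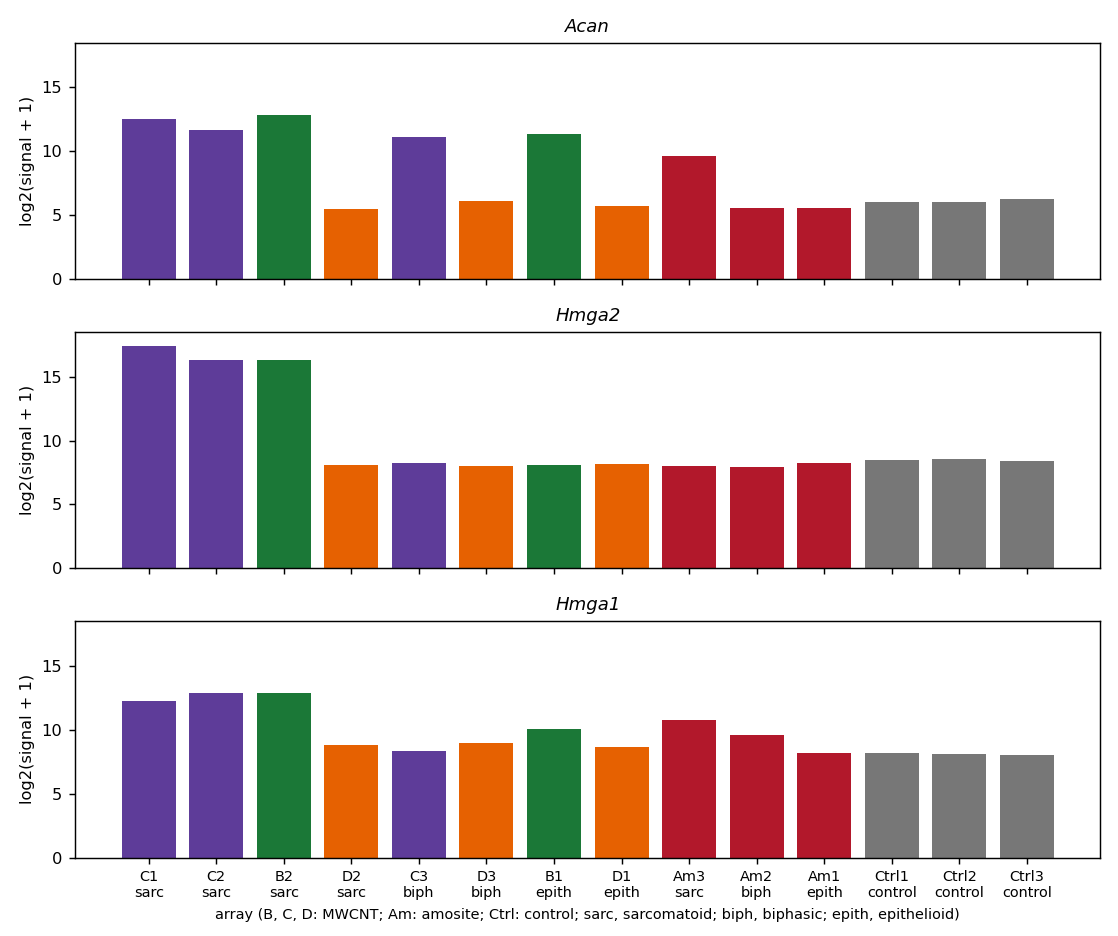
Log2(signal + 1) of Acan, Hmga2 and Hmga1 (vertical axes, from 0) on each of the 14 arrays (horizontal axis, 1 bar per array, coloured by inducer and ordered by tumor type). Acan lies at 11.14 to 12.87 in all 5 MWCNT B and C tumors and at 5.47 to 6.08 in the MWCNT D tumors, while Hmga2 reaches 16.28 to 17.37 in the 3 sarcomatoid MWCNT B and C tumors and is at 7.9 to 8.53 on the other 11 arrays.

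Of the 14217 genes represented by 1 probe set each, 380 did not overlap between the groups with higher values in the MWCNT B and C tumors (2.67%) and 287 with lower values (2.02%). The rule for named genes takes 12 in each direction with a group mean of at least 8 (log2), and apart from Acan none of them passed the adjusted test, with adjusted p-values of 0.24 to 0.73. C9h6orf141, the next after Acan, was 8.77, 10.17 and 8.38 in the MWCNT C tumors, 7.80 and 8.98 in the MWCNT B tumors, and 5.52, 3.75 and 4.33 in the MWCNT D tumors, with a difference of 4.29 (SE 0.57, adjusted p = 0.24). The control tissues were at or below 0.01, and the amosite tumors at 6.68 to 7.98, above the MWCNT D tumors. RT1-T24-4, a class I histocompatibility gene of a family with near-identical copies, was 9.25, 8.67, 10.92, 11.08 and 7.91 in the MWCNT C and B tumors and 4.29, 5.74 and 4.68 in the MWCNT D tumors. Its groups were well separated (difference 4.66, SE 0.77, adjusted p = 0.55), but its reading is uncertain because related genes may hybridize to the same probes.

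Trps1, a GATA-type transcriptional repressor of skeletal and hair development, varied less among the MWCNT D tumors (SD 0.11) than among the others (SD 0.4). It was 10.06, 9.87 and 10.14 in the MWCNT C tumors, 9.33 and 10.39 in the MWCNT B tumors, and 8.75, 8.56 and 8.77 in the MWCNT D tumors. In the amosite tumors Trps1 was 9.93, 8.97 and 9.59. All 3 of its other probe sets also separated the groups without overlap, with differences of 1.29, 1.29 and 1.32 beside 1.27 (SE 0.24, adjusted p = 0.7) for the probe set used. Penk, the precursor of the enkephalin opioid peptides, was 11.21, 9.64, 8.73, 8.56 and 10.59 against 6.63, 7.21 and 6.09 (difference 3.10, SE 0.64). Its amosite tumors were at 10.19, 9.84 and 8.57, in the range of the MWCNT B and C tumors. Zfpm2, a cofactor of GATA factors, was 8.29 to 9.08 against 7.26 to 7.87, although 2 weaker probe sets of it overlapped with differences of 0.22 and 0.05.

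The remaining genes with higher values had varied roles. Eno1, the glycolytic enzyme enolase, was 13.21, 12.90, 13.20, 13.14 and 13.11 against 12.31, 11.85 and 12.32, a small difference of 0.95 (SE 0.17) with a narrow spread in both groups. Stmn1 (stathmin, which destabilizes microtubules) was 11.92 to 12.79 against 10.82 to 11.41, and H2ax, the histone variant marked at DNA breaks, was 9.30 to 10.40 against 8.57 to 8.76. H2ax also separated the groups at its second probe set, by 1.33. S100a10, the partner of annexin A2, was 13.26 to 13.63 against 11.42 to 12.66, Gnai1, an inhibitory G protein subunit, 8.30 to 9.48 against 6.80 to 7.77, and Dipk1c 6.94 to 9.92 against 3.97 to 5.60. With tumor type as a covariate, the adjusted p of each of these 11 genes beside Acan was 0.6.

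The 12 genes named for lower values in the MWCNT B and C tumors had varied roles, and none was called. Ccnd2, the cyclin D2 that drives entry into the cell cycle, was 9.24, 8.41 and 7.79 in the MWCNT C tumors, 9.72 and 9.01 in the MWCNT B tumors, and 10.77, 10.86 and 11.31 in the MWCNT D tumors (difference -2.14, SE 0.42, adjusted p = 0.7). Its paralog Ccnd1 lay the other way, at 11.46 to 13.16 against 10.70 to 11.41, also without overlap (difference 1.15). Icam1, the endothelial and tumor cell ligand of leukocyte integrins, was 10.26, 8.76, 10.17, 10.21 and 9.43 against 11.49, 11.51 and 11.43. Its MWCNT D values were almost equal, and all lay above the highest of the other group (difference -1.71, SE 0.36).

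Igfbp3, which binds insulin-like growth factors, was 10.19, 8.89, 10.67, 10.20 and 9.68 against 11.20, 12.91 and 12.12, with a difference of -2.15 (SE 0.48). Its second probe set gave -2.04, also without overlap. Dpp4, a peptidase of the cell surface that trims chemokines, was 5.39 to 7.56 against 8.93 to 9.96, and its second probe set also did not overlap (-2.93 and -2.15). Klf2, a transcription factor induced by blood flow, was 8.67 to 10.41 against 10.77 to 12.26. Of its 4 other probe sets, 2 gave -2.02 and -2.23 without overlap and 2 overlapped, with -0.29 and 0.82. Blnk, the linker of B cell receptor signaling, was 8.31 to 9.44 against 10.72, 11.43 and 9.83, and its difference of -1.79 was -1.41 without MWCNT D replicate 2. Psen2, a catalytic subunit of gamma-secretase, was 6.70 to 7.24 against 7.80 to 8.37.

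Acss1, which makes acetyl-CoA in mitochondria, was 5.53 to 6.49 against 7.43, 10.04 and 7.82, highest in MWCNT D replicate 2. Its difference of -2.33 was -1.53 without that tumor (adjusted p = 0.63 by limma), and the groups still did not overlap. Susd2 was 5.36 to 7.25 against 7.88 to 8.86, Spetex2l2 5.43 to 7.25 against 8.09 to 9.84, Stac 6.36 to 7.24 against 7.33 to 8.80, and Dtnb, a protein of the dystrophin complex, 7.92 to 8.46 against 8.95 to 9.60. A weaker second probe set of Susd2 did not show the separation (0.05). That of Dtnb gave 6.21 to 6.82 against 7.81, 4.15 and 7.72, a difference of -0.05 that was -1.25 without MWCNT D replicate 2. The probe set with the second-smallest adjusted p of the whole array, 0.054, carries no gene symbol (1384191_at). It was 4.48, 4.20, 4.56, 4.23 and 3.86 in the MWCNT C and B tumors and 8.72, 9.53 and 7.63 in the MWCNT D tumors, a difference of -4.36. The amosite tumors (4.03 to 4.55) and controls (3.71 to 4.23) were at the level of the MWCNT B and C tumors.

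**Figure D2:**
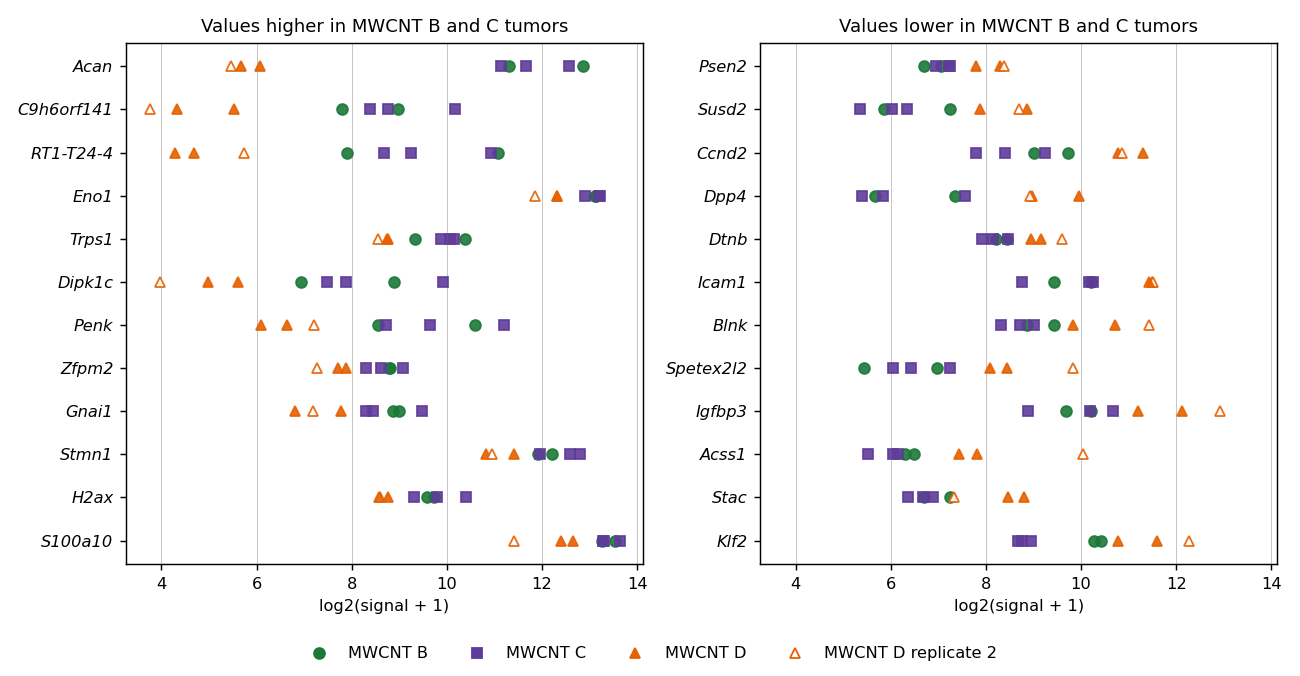
Log2(signal + 1) (horizontal axes) of the 12 named genes with higher and the 12 with lower values in the MWCNT B and C tumors (vertical axes), with 1 symbol per tumor and an open triangle for MWCNT D replicate 2. Acan shows the widest gap between the groups, 11.14 to 12.87 against 5.47 to 6.08, and Acss1 and Igfbp3 show MWCNT D replicate 2 at the outer end, at 10.04 and 12.91.

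Genes of mitosis and the spindle had higher values in the MWCNT B and C tumors as a group, none of them called, and the count that passed an unadjusted p depended on MWCNT D replicate 2. These genes build the kinetochore and spindle, drive chromosome segregation and cytokinesis, and are transcribed together late in the cell cycle, so that their summed level follows the share of dividing cells. Of 35 measured members (40 listed), 0 were called in either direction, 25 had an unadjusted p below 0.05 with higher values, against 4.02% of all genes, and 0 with lower values (2.81% of all genes). The median log2 difference was 1.25, against 0 over all genes, and all 35 differences were above 0. Without MWCNT D replicate 2, the count was 4 of 35 (3.23% of all genes) and the median 0.74. With tumor type as a covariate it was 14 of 35 (4.48% of all genes) and the median 1.24, and with both changes 0 of 35. Leaving out other tumors also moved the count, to 10 without MWCNT D replicate 1, 35 without MWCNT D replicate 3, 15 without MWCNT C replicate 1 or 2, and 13 without MWCNT B replicate 2.

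The list mean by tumor shows where the difference lay. It was 9.72, 10.65 and 9.85 in the sarcomatoid MWCNT C and B tumors and 7.65 in the sarcomatoid MWCNT D tumor, the tumor with pancreatic and lymphocyte genes. Between the biphasic tumors it was 9.51 for MWCNT C and 9.58 for MWCNT D, and between the epithelioid tumors 9.27 for MWCNT B and 8.50 for MWCNT D. Mitotic genes were thus level in the biphasic pair and apart in the other types. In the amosite tumors the mean was 9.03 to 9.41, and in the control tissues 4.81 to 4.98.

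Of the 35 genes, 6 did not overlap between the groups (Cdc20, Bub1b, Nusap1, Spc25, Racgap1 and Hmmr), against 2.67% of all genes. Bub1b, a kinase of the spindle checkpoint, was 8.46, 9.66 and 8.77 in the MWCNT C tumors, 8.27 and 8.83 in the MWCNT B tumors, and 7.44, 6.44 and 8.07 in the MWCNT D tumors (difference 1.48, SE 0.42, unadjusted p = 0.0079). Spc25, a subunit of the NDC80 complex at the kinetochore, was 9.34, 10.49, 9.37, 9.13 and 9.74 against 8.14, 7.34 and 8.98. For both genes MWCNT D replicate 2 was lowest and MWCNT C replicate 2 highest, and the gap between the groups was small beside the spread within them. Hmmr, a hyaluronan receptor that also binds the spindle, was 8.52 to 10.22 against 6.78 to 8.37, and Racgap1, which positions the cytokinetic furrow, 10.23 to 11.61 against 8.23 to 10.21. These 4 are also the members with an unadjusted p below 0.05 without MWCNT D replicate 2. The proliferation marker Mki67 was 10.47 to 12.58 against 9.92, 8.97 and 10.91, with an overlap.

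**Figure D3:**
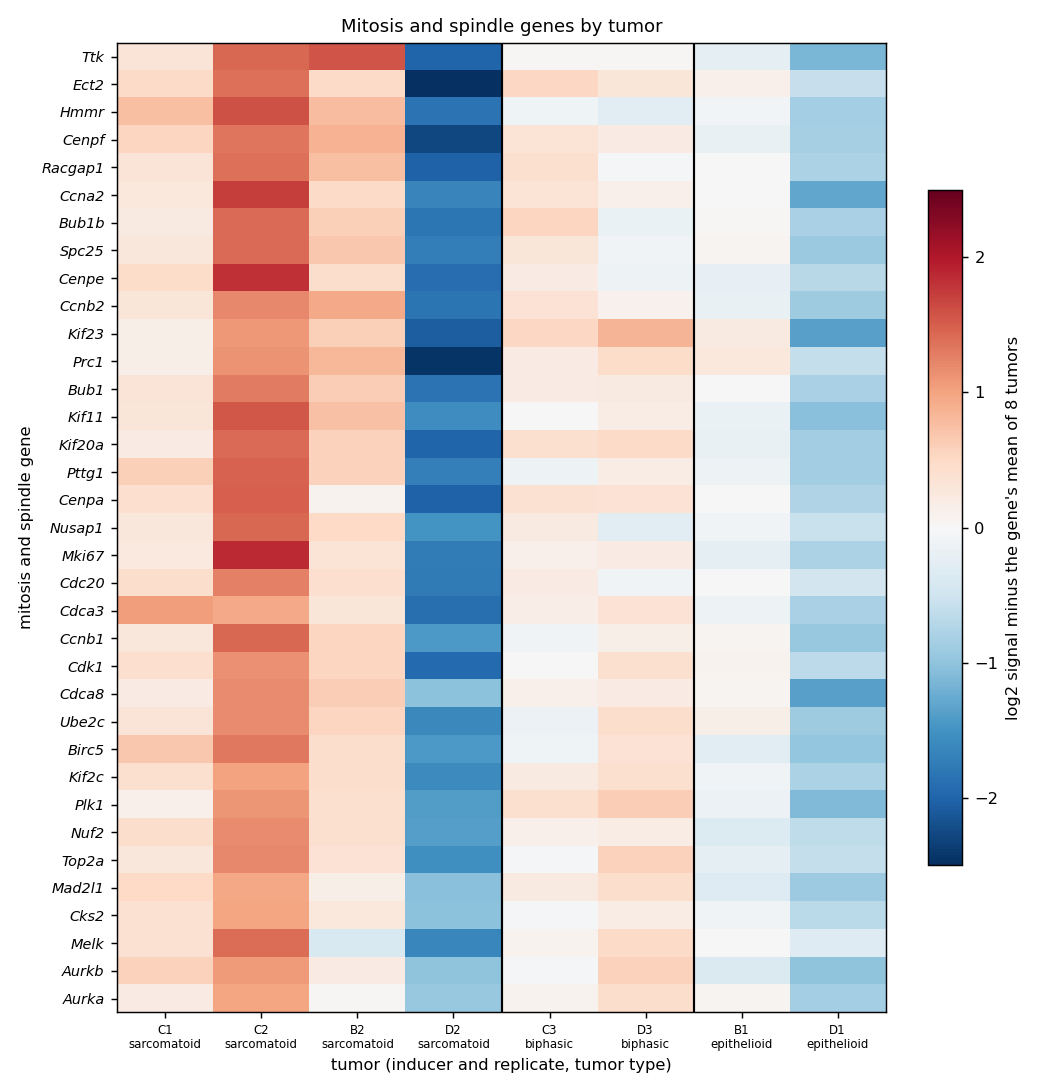
Log2 signal of 35 mitosis and spindle genes (vertical axis, ordered by their log2 difference) in the 8 tumors (horizontal axis, ordered by tumor type, with black lines between types), as the difference from the gene's mean over the 8 tumors. MWCNT D replicate 2 is the lowest tumor for 33 of the 35 genes and MWCNT C replicate 2 the highest for 33, and the biphasic tumors C3 and D3 have list means of 9.51 and 9.58.

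Many mitotic genes share short promoter elements, the cell cycle homology region near the start site, which is bound by repressor and activator complexes of the DREAM and MuvB type, and CCAAT boxes upstream of it, bound by NF-Y. The windows around the transcription start are shown for named members that the RefSeq promoter table (build GRCr8) holds, because all 35 differences of this list had the same sign. Windows are 300 bases long and written 5′ to 3′ on the strand of the gene. Capitals mark the core of the cell cycle homology region, TTTGAA, and the CCAAT box on either strand. No match of one motif overlapped a match of the other in them. They lie at chr3:126016817-126017116 (strand plus), chr3:74396669-74396968 (strand minus) and chr10:25665166-25665465 (strand minus).
Bub1b: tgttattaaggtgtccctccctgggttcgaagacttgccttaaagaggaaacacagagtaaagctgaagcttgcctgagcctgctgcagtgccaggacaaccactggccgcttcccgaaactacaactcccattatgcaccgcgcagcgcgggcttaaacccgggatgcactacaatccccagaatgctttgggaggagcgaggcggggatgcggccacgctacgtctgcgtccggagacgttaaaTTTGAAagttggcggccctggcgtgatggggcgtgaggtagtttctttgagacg
Spc25: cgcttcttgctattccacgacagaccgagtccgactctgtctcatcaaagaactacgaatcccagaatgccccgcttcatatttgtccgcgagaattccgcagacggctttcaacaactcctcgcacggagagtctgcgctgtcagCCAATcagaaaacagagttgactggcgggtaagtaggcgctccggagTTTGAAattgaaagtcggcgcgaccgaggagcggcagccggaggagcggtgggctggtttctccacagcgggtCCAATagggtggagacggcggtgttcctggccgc
Hmmr: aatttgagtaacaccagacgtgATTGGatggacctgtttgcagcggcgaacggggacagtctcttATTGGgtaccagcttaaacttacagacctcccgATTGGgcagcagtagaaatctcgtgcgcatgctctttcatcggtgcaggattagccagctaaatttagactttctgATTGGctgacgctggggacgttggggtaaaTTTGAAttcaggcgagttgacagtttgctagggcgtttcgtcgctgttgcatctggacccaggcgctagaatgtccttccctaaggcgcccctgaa
Of the 35 mitotic genes 31 had a window, and 22 of these (71%) held TTTGAA on either strand, against 13.3% of 11700 genes on the array and 18.3% of all 33469 windows. CCAAT was in 24 of 31 (77.4%), against 38.6% and 37.5%, and both were in 19 of 31 (61.3%), against 5.41% and 7.41%. In the windows shown, Bub1b had 1 TTTGAA and 0 CCAAT, Spc25 had 1 and 2, and Hmmr 1 and 4. The first CCAAT of Spc25 lay upstream of its TTTGAA and the last lay downstream of it. These are matches of letters, and no binding was measured.

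Other lists of the cell cycle had smaller medians and fewer members that passed. Of 36 genes of DNA replication and nucleotide synthesis, 4 had higher values at an unadjusted p below 0.05 and 0 lower ones, with a median of 0.48 (0.29 without MWCNT D replicate 2, when 0 passed). Cdc45, a helicase cofactor, was 8.99, 10.15, 9.13, 8.92 and 8.86 against 8.02, 8.14 and 8.84, and Prim1, the primase subunit, 10.18 to 11.55 against 9.74 to 10.11. The groups nearly met, at 8.86 and 8.84 for Cdc45 and at 10.18 and 10.11 for Prim1, and the spread within each group was wider. Of 27 regulators of the cycle 7 had higher values (4.02% of all genes) and 1, Ccnd2, lower ones (2.81% of all genes), with a median of 0.26. Without MWCNT D replicate 2 the 7 became 2. Of 15 genes of homologous recombination and the Fanconi pathway 2 were higher and 0 lower (0 either way without that tumor), led by Chek1 (7.98 to 9.37 against 6.91 to 7.98).

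Several mesenchymal regulators had higher values in the MWCNT B and C tumors. Of 14 measured genes of the epithelial to mesenchymal transition (EMT) 5 had higher values at an unadjusted p below 0.05 (4.02% of all genes) and 0 lower ones, with a median of 0.72, and without MWCNT D replicate 2 the count was 2 and the median 0.32. S100a4, a calcium-binding protein of motile cells, was 13.43, 13.68 and 13.25 in the MWCNT C tumors, 13.32 and 13.67 in the MWCNT B tumors, and 12.24, 11.20 and 12.78 in the MWCNT D tumors (difference 1.40, SE 0.33). Twist1, a transcription factor of this program, was 11.08, 11.22, 10.19, 9.69 and 11.23 against 9.62, 5.39 and 8.35, a difference of 2.89 that was 1.69 without MWCNT D replicate 2. All values of both genes were higher than those of the MWCNT D tumors, by little in the case of the epithelioid MWCNT B tumor for Twist1. Vim (vimentin) was 13.86 to 14.01 against 13.86, 12.75 and 13.29. The mean of the EMT list was 10.86 to 11.09 in the sarcomatoid MWCNT B and C tumors and 8.98 in MWCNT D replicate 2. Between the biphasic tumors it was 10.69 for MWCNT C and 10.8 for MWCNT D. Between the epithelioid tumors it was 11.24 for MWCNT B and 10.76 for MWCNT D.

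With all 8 tumors and no covariate, mesothelial genes did not pass in either direction, and keratin, junction and matrix genes had few members that did. Of 16 mesothelial identity genes 0 passed an unadjusted p below 0.05 either way, with a median of -0.28 that was -0.94 without MWCNT D replicate 2 and 0.47 with tumor type as a covariate. Their list mean was 11.20 and 10.85 in the biphasic MWCNT C and MWCNT D tumors, 10.56 and 10.82 in the epithelioid MWCNT B and MWCNT D tumors, and 8.20 to 9.49 in the sarcomatoid MWCNT B and C tumors against 7.26 in the sarcomatoid MWCNT D tumor. Without MWCNT D replicate 2, 1 mesothelial gene was lower (2.41% of all genes), Gpm6a, at 7.12 to 8.06 against 11.05 and 9.15. With tumor type as a covariate 1 was higher (4.48% of all genes), Tbx18. Among 21 genes of keratins and junctions 1 was higher and 0 were lower, near the 4.02% and 2.81% of all genes. This was Pkp1, a desmosomal plakophilin, at 10.94, 11.34, 12.26, 9.91 and 11.78 against 9.89, 5.27 and 8.52. Its groups met at 9.91 and 9.89, the epithelioid tumors of each. With tumor type as a covariate 4 of the 21 were higher and 0 lower (4.48% and 4.28% of all genes). Without MWCNT D replicate 2, 1 was higher and 1 lower (3.23% and 2.41% of all genes). Dsp (desmoplakin) ran from 5.63 to 12.65 within the MWCNT B and C tumors. Of 30 collagens and matrix genes 1 was higher, also near that share, Col18a1 (9.83 to 11.17 against 9.05 to 9.69). With tumor type as a covariate 7 were higher (4.48% of all genes). That fit sets MWCNT D replicate 2 against the other sarcomatoid tumors, and without this tumor 0 were higher (3.23% of all genes). Their median was 0.30, and -0.35 without MWCNT D replicate 2.

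Lymphocyte, interferon and pancreatic genes had lower medians in the MWCNT B and C tumors, and these medians rested on MWCNT D replicate 2. For pancreatic acinar genes the median was -2.56 with 8 tumors and 0.05 without that tumor, for B and plasma cell genes -2.16 and -0.09, and for T and NK cell genes -1.42 and -0.23. At an unadjusted p below 0.05, 1 of 21 acinar genes was lower (2.81% of all genes), as were 0 of 12 and 0 of 25 lymphocyte genes. With tumor type as a covariate, which sets MWCNT D replicate 2 against the other sarcomatoid tumors, 16 of 25 T and NK cell genes were lower (4.28% of all genes). Cd3g, a chain of the T cell receptor complex, was 7.62, 6.39, 5.39, 6.55 and 7.15 against 6.83, 12.40 and 7.27, so that only MWCNT D replicate 2 lay outside the range of the MWCNT B and C tumors. Interferon genes had a median of -0.61 (-0.09 without the tumor), with Irgm, an immunity GTPase, at 7.43 to 8.4 against 7.89, 9.75 and 8.69. Antigen presentation genes had -0.66 (-0.23) with 1 of 22 lower, and islet and duct genes -0.74 (0.08) with 0 of 11.

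Of 23 macrophage genes 0 passed an unadjusted p below 0.05 either way (median -0.39), and Cd68 was 9.82 to 11.85 against 10.68 to 11.63. Of 10 neutrophil genes 0 passed, with S100a9, a calprotectin chain, spread from 6.91 to 12.58 within the MWCNT B and C tumors. Of 19 mast cell and eosinophil genes 1 was higher (Gata2, a transcription factor, difference 0.66) and 1 lower (Kit, the stem cell factor receptor, -0.82), against 4.02% and 2.81% of all genes. Class II histocompatibility genes gave a mixed reading: RT1-Bb was 12.42, 9.57, 10.02, 10.75 and 11.81 against 11.93, 14.18 and 13.40 at its strongest probe set (difference -2.26), while another probe set of the same gene gave 11.40, 8.69, 8.79, 9.61 and 10.86 against 3.32, 0.02 and 3.08 (difference 7.73, adjusted p = 0.18). The MWCNT D values are not shown to be above background, and once all log2 values under 5 were set to 5 the difference was 4.87. The second probe set separated the groups without overlap and in the opposite direction. On it the amosite tumors were at 8.71, 0.13 and 11.37 and the control tissues at 8.34 to 8.66. The strongest probe set gave 9.63, 13.13 and 12.19 in the amosite tumors and 0.01, 9.85 and 9.15 in the control tissues. The partner chain RT1-Ba and the invariant chain Cd74 overlapped, with differences of -1.52 and -0.98.

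**Figure D4:**
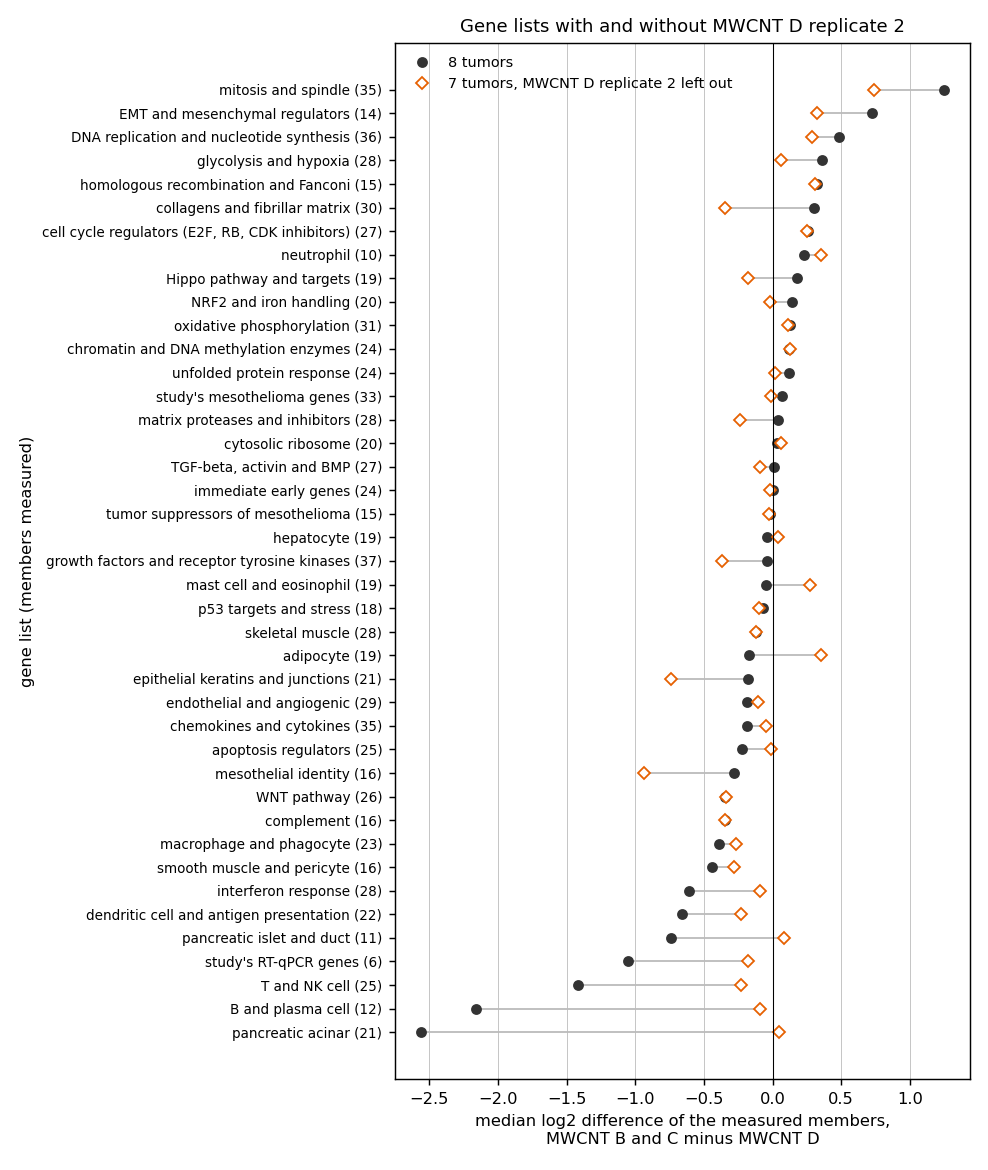
Median log2 difference (MWCNT B and C minus MWCNT D, horizontal axis) of the measured members of 41 gene lists (vertical axis, number of members in brackets), with 8 tumors (filled circles) and with 7 tumors after MWCNT D replicate 2 is left out (open diamonds). Pancreatic acinar, B cell and T cell lists move from -2.56, -2.16 and -1.42 to 0.05, -0.09 and -0.23, and the mitosis list from 1.25 to 0.74.

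Igf2, Igfbp3 and Fgfr4 had lower values in all MWCNT B and C tumors than in the MWCNT D tumors, while their whole list had a median of -0.04. Of 37 growth factors and receptor tyrosine kinases, 5 had lower and 2 higher values at an unadjusted p below 0.05 (2.81% and 4.02% of all genes), 5 did not overlap with lower values (2.02% of all genes), and 5 were lower and 0 higher when MWCNT D replicate 2 was left out (2.41% and 3.23% of all genes). Igf2, a fetal growth factor, was 6.35, 6.36 and 5.02 in the MWCNT C tumors, 7.57 and 6.0 in the MWCNT B tumors, and 13.08, 7.65 and 9.09 in the MWCNT D tumors, a difference of -3.68 (SE 1.13, unadjusted p = 0.011). The separation was wide for MWCNT D replicate 1 and narrow for MWCNT D replicate 2. The amosite tumors were at 13.52, 10.60 and 6.21, and the lowest control tissue at 9.53. Igfbp5, a binding protein of these factors, was 5.82, 7.57, 9.21, 10.52 and 7.87 against 10.98, 10.21 and 10.26, and Fgfr4, a fibroblast growth factor receptor, 4.05 to 5.38 against 5.79, 6.04 and 6.18. The Fgfr4 signals were weak, under the group mean of 8 used for naming, and are not shown to be above background. Epha2, an ephrin receptor, had higher values, 9.42 to 10.39 against 8.43, 6.45 and 9.84, with an overlap.

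In the vessel, pericyte and signaling lists, a few members passed an unadjusted p below 0.05, against 4.02% of all genes with higher and 2.81% with lower values. Vegfc, the growth factor of lymphatic vessels, was 9.47 to 10.76 against 9.11, 8.32 and 7.80 (difference 1.57, SE 0.37, 1.53 without MWCNT D replicate 2), the only one of 29 endothelial and angiogenic genes with an unadjusted p below 0.05. Cspg4, a proteoglycan of pericytes, was 7.35, 8.85, 6.79, 7.71 and 9.53 against 5.84, 5.25 and 5.67. It had higher values in each of the 5 tumors, whereas the smooth muscle myosin Myh11 was 5.65 to 7.85 against 8.07, 9.11 and 7.66, with an overlap. Sfrp2, a secreted inhibitor of WNT signaling, was 6.73, 8.85, 9.23, 9.29 and 9.29 against 9.85, 10.39 and 11.89, and Wnt5a 7.56 to 8.65 against 7.23, 5.83 and 7.81, among 26 WNT genes of which 1 was higher and 2 lower. The WNT list had a median of -0.35 (-0.34 without MWCNT D replicate 2, with 0 higher and 1 lower), and the smooth muscle and pericyte list one of -0.44 (-0.28). Of 27 genes of TGF-beta, activin and BMP signaling 2 were higher, Fst and Bmp2, and 0 lower, which became 1 and 2 without that tumor. Of 24 immediate early genes 3 were higher and 2 lower, or 2 and 1 without that tumor, and Jun was 11.42 to 12.05 against 10.80, 9.88 and 11.27.

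Hmga2, a chromatin protein of embryonic and tumor cells, split the MWCNT B and C tumors themselves. Its log2 signal was 17.37 and 16.33 in the sarcomatoid MWCNT C tumors, 16.28 in the sarcomatoid MWCNT B tumor, 8.22 in the biphasic MWCNT C tumor and 8.09 in the epithelioid MWCNT B tumor. It was 8.18, 8.05 and 8.01 in the MWCNT D tumors, and 7.9 to 8.53 in the amosite and control samples. On the 3 high arrays its signals were 170000, 82400 and 79500, against 237 to 370 elsewhere, and whether the high signals were saturated is not given in the sources used here. On this probe set the sarcomatoid tumors of MWCNT D and of amosite were at the level of the other 9 arrays. The difference between the groups was 5.18 (SE 2.40, unadjusted p = 0.063) and did not pass. Its relative Hmga1 was 12.28, 12.85 and 12.91 in the same 3 tumors, 8.33 and 10.09 in the other MWCNT B and C tumors, and 8.69, 8.85 and 8.97 in the MWCNT D tumors.

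The study also singled out genes, which it chose on these samples and which are not independent of them. Of 33 measured genes on its mesothelioma list 1 was higher and 0 lower at an unadjusted p below 0.05, with a median of 0.07. The 6 genes it measured by RT-qPCR had a median of -1.05, with 1 higher and 3 lower. Without MWCNT D replicate 2 the median was -0.18, with 1 higher and 1 lower. The shares of all genes at this threshold were 4.02% higher and 2.81% lower. Without that tumor they were 3.23% and 2.41%. Plaat1 (Hrasls), a phospholipase and acyltransferase, was 6.84, 7.05, 7.25, 7.46 and 7.26 against 6.55, 4.83 and 6.36, and Fgfr4, Gadd45b and Nr4a1 were lower with unadjusted p-values of 0.0063, 0.045 and 0.05. Ret, a receptor tyrosine kinase, was 6.12 to 6.84 against 5.98, 13.29 and 6.24, high in MWCNT D replicate 2 alone.

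In the remaining lists at most 3 members passed an unadjusted p below 0.05 in a direction, with medians between -0.44 and 0.36. Over all genes, 4.02% passed with higher and 2.81% with lower values. Glycolysis had a median of 0.36 with Eno1 and Pgam1 (13.38 to 13.55 against 12.39 to 13.14) higher. Oxidative phosphorylation had 0.13, the cytosolic ribosome 0.03, the unfolded protein response 0.12, NRF2 and iron handling 0.14, tumor suppressors of mesothelioma -0.02, p53 targets -0.07 and apoptosis regulators -0.22. In the adipocyte list Scd, which desaturates fatty acids, was 3.73, 3.61, 7.03, 7.78 and 3.49 against 9.07, 9.84 and 8.20 (difference -3.91, SE 1.12). Its lowest values were those of the 3 sarcomatoid MWCNT B and C tumors, and other fat genes of these samples varied from tumor to tumor, with Adipoq (adiponectin) at 3.04 to 11.39 against 4.30 to 10.98.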

How the data were processed

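Total RNA of 8 tumors (of 14 samples, 1 array each, Affymetrix Rat Genome 230 2.0) was measured. The authors normalized the arrays with PLIER (Transcriptome Analysis Console), and the deposited values are linear signal intensities of 31099 probe sets with no detection calls. The median intensity of the 8 arrays was 129 to 147. Precision is limited by how many arrays there were. The 8 tumors came from different rats.

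Control probe sets of the manufacturer (57) were left out, and log2(signal + 1) of the 31042 others was fitted with limma 3.58.1 in R 4.3.3 as MWCNT B and C against MWCNT D over 8 arrays, without covariates. P-values were adjusted by the Benjamini-Hochberg method over all probe sets; calls needed a fold change of more than 2 together with an adjusted p under 0.05. Fold changes on this scale understate those of weak probe sets. Every p is a moderated limma p. Gene symbols came from the array annotation, checked against RefSeq by gene ID: 20826 probe sets had 1 symbol, 436 several and 9780 none. Each of 14217 genes was read from 1 probe set, that of highest mean signal over 14 arrays.

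Named were the 12 genes each way with non-overlapping groups and a group mean of at least 8, called genes first and then by smallest p, and 2 to 4 members of each of 41 lists by smallest p, described by counts and medians. The cartilage genes, 1384191_at, Ccnd1, the RT1-Bb partners and a few further list members were added after their values were seen. Members and lists were chosen with earlier results of these data known. The method was tested on simulated data. Alternatives were other scalings, pseudocounts, filters, floors, variance models, arrays, covariates, blocks, thresholds and probe set choices. Figures were drawn with matplotlib 3.10.9.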

Additional observations from a re-analysis of the deposited data

Results flagged for a closer look

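Among 98 named genes, 6 had 1 tumor of the 5 MWCNT B and C tumors far from the other 4, measured by the gap to the nearest tumor relative to the whole range (Dixon's test); chance flags about 1 in 20 such groups. Nqo1, an NRF2 target, was 13.28 in MWCNT C replicate 3 and 8.86 to 9.61 in the other 4. Des (desmin) was 7.89 in MWCNT C replicate 3 and 11.36 to 12.48 in the others. Prss1 (trypsin) was 5.30 in that tumor and 5.83 to 5.97 in the others. Cdc45 was 10.15 in MWCNT C replicate 2 and 8.86 to 9.13 in the others. Ifi44l, an interferon gene, was 8.47 in MWCNT B replicate 2 and 6.82 to 7.0 in the others. Sfrp2 was 6.73 in MWCNT C replicate 1 and 8.85 to 9.29 in the others.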

How the results depend on the processing

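The count of 1 probe set called higher became 0 with a floor at a log2 signal of 5, without moderation of the variances, with the spread of all 11 tumors, with the mean of the MWCNT B and MWCNT C group means, with tumor type as a covariate and with the replicate block, and 3 with the spread of all 14 arrays; leaving out 1 tumor gave 0 to 2. The count of 0 called lower became 1 with quantile normalization, with arrays centred on their medians, with trend and robust moderation, with the spread of 14 arrays or of 11 tumors and at an adjusted p under 0.1, each time 1384191_at, and 0 to 3 when 1 tumor was left out (Npas3, -3.04, adjusted p = 0.018, without MWCNT D replicate 2). MWCNT B against MWCNT C gave 0 to 5 when 1 tumor was left out. The cause was not tested.

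Replicate numbers were not used as pairs in the main fit. Deviations of same-numbered tumors from their own group means correlated from -0.16 to 0.39. The deviations of the 2 MWCNT B tumors mirror each other by construction, so that these correlations cannot decide whether the numbers pair samples. Under the replicate block Acan was 6.12 with an adjusted p of 0.34. Acan was called in 11 of 23 alternatives, with adjusted p-values of 0.0067 to 0.34. Without MWCNT D replicate 2 and with tumor type as a covariate, chosen after seeing the data, it was 5.34 (adjusted p = 0.13).

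Over 98 named genes and 2254 alternative values, 2233 kept direction and side of the threshold, 12 lost the call (all Acan), 1 gained it (C9h6orf141, adjusted p = 0.029 with the spread of 14 arrays) and 8 changed sign: Des -0.31 without MWCNT D replicate 2 (1.22 at most when another tumor was left out); Des -1.9, Ocln 0.56, Mmp19 -0.08, Tpsab1 -0.46 and Stk4 0.02 without it and with tumor type; Myh1 1.71 and RT1-Bb 7.73 when a gene was read from its probe set of largest fold change. The table carries no detection calls, so weak signals could not be set apart from background.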
